A study of Ovis aries with 2 samples.

Results

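TREM2, GPNMB, MCOLN3, LPL, FABP4, FABP5, PPARG and APOE are genes of lipid handling in macrophages, and their transcripts were counted one cell at a time in an implanted vascular graft and in a native artery of sheep. The 8 genes were taken by symbol from the deposited gene list, which holds 21890 genes, and all 8 were found in both libraries. They held 79934 of 35249348 UMIs kept in the graft library and 6967 of 40543854 in the native library, where a UMI, or unique molecular identifier, stands for 1 captured transcript molecule. The graft library came from an acellular tissue-engineered vessel, titled H2R5-ATEV, that had been implanted for 12 weeks and whose source is given as carotid artery. The native library came from a carotid artery taken at the same explant, although its title calls it an aorta. Both came from sheep of 1 to 2 years, and the number of animals is not in the labels. The clamped vessels were filled with collagenase, elastase and protease to release the cells, and red blood cells were lysed before capture.

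TREM2 is a surface receptor that binds lipids and lipoproteins and signals through the adaptor TYROBP. In macrophages that take up lipid, lipoprotein triglyceride is cut by the lipase LPL, fatty acids are carried in the cytosol by FABP4 and FABP5, cholesterol leaves on particles that contain APOE, and the membrane protein GPNMB and the calcium channel MCOLN3 sit in lysosomes. PPARG is a nuclear receptor that binds fatty acids and switches on lipid genes, FABP4 among them, in fat cells and macrophages. Macrophages that express TREM2, GPNMB, LPL and FABP5 together are well described in atherosclerotic artery wall and in fat tissue of mice and humans.

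Each tissue gave 1 library, so no test between graft and native artery was possible, and every interval below covers counting error only. The graft library kept 1074 barcodes, each standing for 1 captured cell, with a median of 20832 UMIs, against 10080 native barcodes with a median of 1495.5 UMIs. A barcode counted as macrophage when C1QA, C1QB, AIF1, CSF1R and CTSS together reached 3 UMIs, which gave 643 graft barcodes with a median of 29931 UMIs and 1612 native barcodes with a median of 1717. Other barcodes took the class whose marker list had the most UMIs, if at least 3 and more than any other list. The rest, 73 in the graft and 1715 in the native artery, stayed unnamed. The 2 libraries shared 7 barcode sequences, 4 of them kept in both, and none was a macrophage barcode in both. The limit of 3 UMIs lay in a dense range, with 116 graft and 423 native barcodes at 3 UMIs and 151 graft and 1071 native barcodes at 2. It also let in barcodes of other types: of the barcodes with 3 to 9 marker UMIs, another class list held more UMIs in 211 of 275 in the graft and in 418 of 980 in the native artery. Barcodes with 30 or more marker UMIs, a limit chosen after these values had been seen, numbered 346 in the graft and 458 in the native artery, and another list was larger in 35 of the graft and 7 of the native ones. Levels are UMIs of the gene per 1000000 UMIs of the class in that library (CPM). They are 3′ counts not divided by transcript length, so levels are compared between libraries or classes and not between genes.

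TREM2, GPNMB, MCOLN3, LPL, FABP4, FABP5 and APOE were higher in graft than in native macrophage barcodes, by between 6.26-fold for FABP5 and 979-fold for FABP4, and PPARG was 1.25-fold higher. At a fold of 2, 7 of the 8 members were higher in the graft and 0 were lower. Of the 16357 genes with at least 10 UMIs over both libraries, 12.7% were at least 2-fold higher in graft macrophage barcodes and 12.4% at least 2-fold lower. The median log2 ratio was 4.31 over the members and -0.01 over all genes counted. Only 1.01% of those genes had a higher ratio than LPL, and 0.593% had a higher ratio than TREM2. PPARG stood in the middle of the range, with 31.7% of genes above it.

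The receptor TREM2 had 3881 UMIs in 255 of the 643 graft macrophage barcodes, against 56 UMIs in 41 of the 1612 native ones. That is 138 CPM in the graft, with a 95% Poisson interval of 133 to 142, and 5.49 CPM in the native artery, with an interval of 4.15 to 7.13. The ratio was 25.1, with an exact interval of 19.3 to 33.3. The TREM2 transcripts were spread widely in the graft: 40 barcodes held 50% or more of them, the highest had 171 UMIs, and the 10 highest together held 20.5%. In the native artery no barcode had more than 8.

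The 2 lysosomal members had larger ratios than TREM2. GPNMB, a membrane glycoprotein of lysosomes and melanosomes, had 164 CPM in graft macrophage barcodes, from 4612 UMIs, against 3.73 CPM in native ones, from 38 UMIs. Its ratio was 43.9, with an interval of 31.9 to 62.1. MCOLN3, a calcium channel of endosomes and lysosomes, had 98.8 CPM in the graft, from 2785 UMIs in 192 barcodes, against 0.785 CPM in the native artery, from 8 UMIs in 6 barcodes. The MCOLN3 ratio of 126 had an interval of 63.8 to 292, wide because of the 8 native UMIs. MCOLN1, the channel of the same family found on lysosomes in most cell types, was level, at 16.3 CPM in graft and 16.2 CPM in native macrophage barcodes.

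LPL, the secreted lipoprotein lipase, had 331 CPM in graft macrophage barcodes, from 9336 UMIs, against 21.2 CPM in native ones, from 216 UMIs. The ratio was 15.6, with an interval of 13.7 to 18.0. In the graft, 17 barcodes held 50% or more of the LPL UMIs and the highest had 542. In the native artery 3 barcodes did so, and 1 of them had 78. Without the 10 barcodes of each library with the most LPL, the log2 ratio was 4.90, against 3.97 with them.

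The fatty acid carriers differed in how many cells held them. FABP5, the carrier of skin and macrophages, had 825 CPM in graft macrophage barcodes and 132 CPM in native ones, a ratio of 6.26 with an interval of 5.92 to 6.62. It was found in 435 of the graft barcodes and in 355 of the native ones, more barcodes than any other member in the native artery. FABP4, the carrier of fat cells, had 2705 UMIs in the graft but in only 57 barcodes, against 1 UMI in the native artery. Its levels were 96.0 CPM in the graft, against 0.0981 CPM in the native artery, and the ratio of 979 had an interval of 175 to 38664, which the single native UMI sets. In the graft the 10 highest barcodes held 90.1% of the FABP4 UMIs, and the 3 highest had 508, 481 and 354. Without the 10 highest barcodes of each library the native count was 0, and against a floor of 3 counts the log2 ratio was 5.05. FABP4 and FABP5 lie on the same chromosome with 2 genes between them in RefSeq's sheep assembly ARS-UI_Ramb_v3.0.

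FABP4 also marks fat cells and capillary endothelium. Adipocyte markers were summed over all macrophage barcodes, and FABP4 was counted in endothelial barcodes outside the gate. The macrophage barcodes that held FABP4 were not looked at on their own, so these values cannot say what those cells were. The 7 adipocyte markers found in the matrices summed to 7.52 CPM in graft and 10.4 CPM in native macrophage barcodes, and PLIN4 was at 0 in both. The sum per barcode ran from 0 to 1132 CPM in the graft and from 0 to 2740 CPM in the native artery, with a median of 0 in both. In endothelial barcodes FABP4 had 2 UMIs among 133 in the graft and 1 UMI among 3897 in the native artery.

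The nuclear receptor PPARG had 46.9 CPM in graft macrophage barcodes, from 1322 UMIs, against 37.7 CPM in native ones, from 384 UMIs. The ratio was 1.25, with an interval of 1.11 to 1.40, which lies above 1 but under the fold of 2. Among barcodes with 30 or more marker UMIs it was 73.2 CPM in the graft, against 52.0 CPM in the native artery, a ratio of 1.41. With each barcode given equal weight the log2 ratio was 1.12, so that PPARG then passed 2-fold and 8 of 8 members were higher.

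APOE, the main protein of the particles that carry cholesterol out of cells, had 840 CPM in graft macrophage barcodes, from 23671 UMIs, against 107 CPM in native ones, from 1088 UMIs. The ratio was 7.87, with an interval of 7.41 to 8.37, and it moved more with the marker limit than that of any other member. In the native artery 3 barcodes held 69.9% of those UMIs, and the 2 highest, with 328 and 218 APOE UMIs, also had 151 and 255 UMIs of the smooth muscle markers. The highest of them had 4 macrophage marker UMIs among 15838. Of the native APOE UMIs, 91.3% came from barcodes with 3 to 9 marker UMIs. Among barcodes with 30 or more, APOE was 940 CPM in the graft, from 16183 UMIs, against 5.68 CPM in the native artery, from 39 UMIs, and the ratio was 166 with an interval of 121 to 233. These 2 sets were not alike in other markers. The smooth muscle list summed to 2543 CPM in the graft ones and 19.6 CPM in the native ones, and the fibroblast list to 3475 CPM and 498 CPM. The graft barcode with the most APOE, 1311 UMIs, had 1589 smooth muscle and 4441 fibroblast list UMIs. The native APOE level of 5.68 CPM was close to the 3.51 CPM of native T or NK barcodes, whose interval ran from 1.81 to 6.13.

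**Figure D1:**
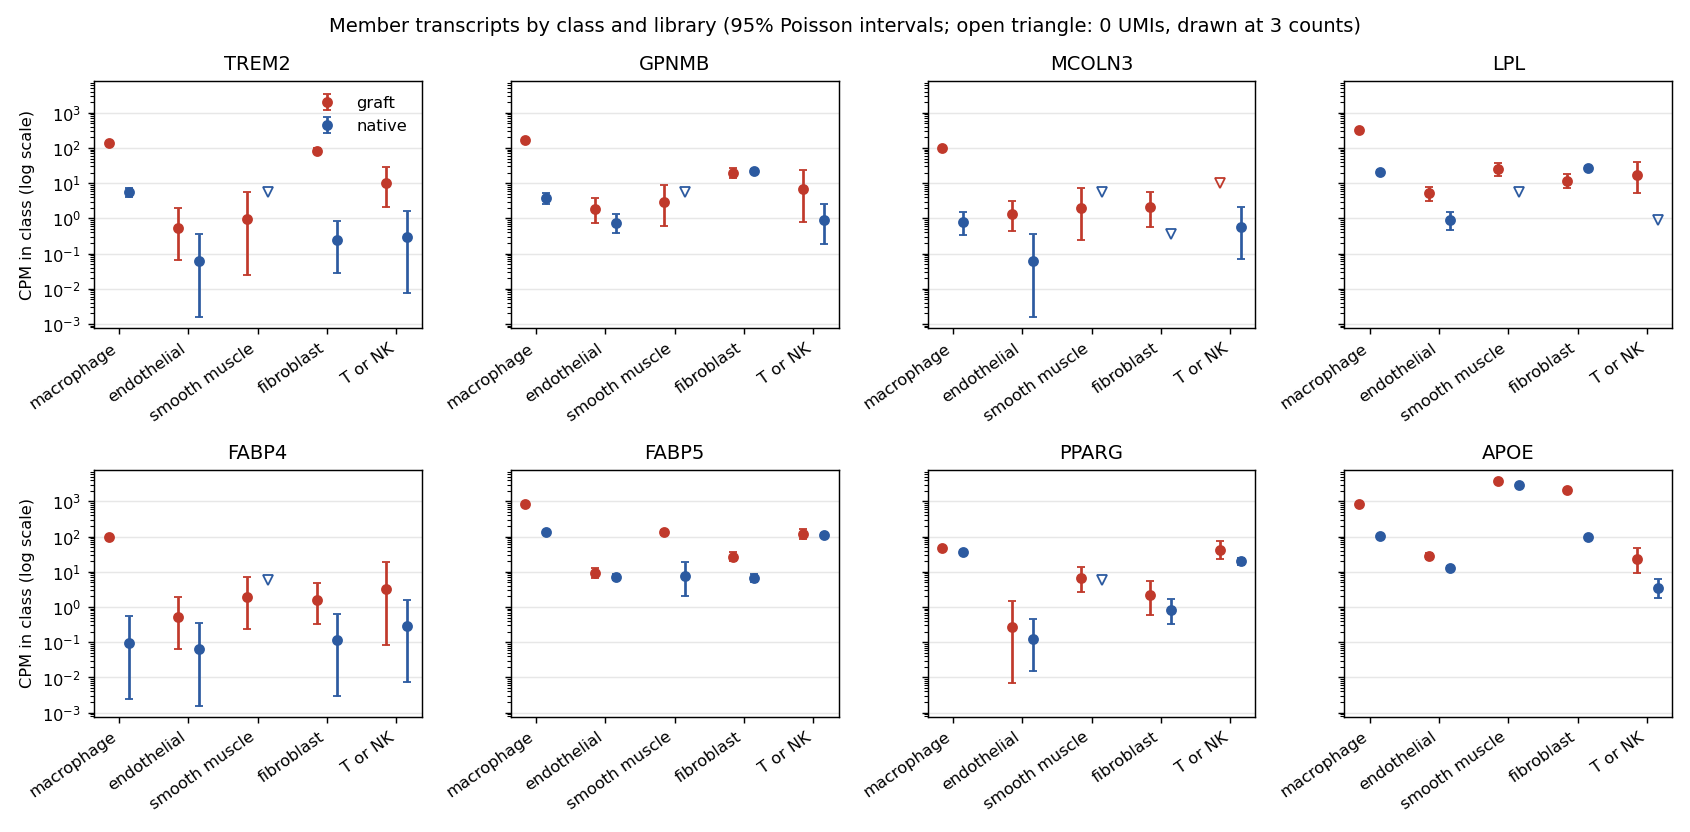
Level of each gene in CPM of the class (vertical log axis) in 5 classes of barcodes (horizontal axis), graft in red and native artery in blue, with 95% Poisson intervals and open triangles where 0 UMIs were found, drawn at 3 counts. TREM2, GPNMB, MCOLN3, LPL, FABP4 and FABP5 stand highest in graft macrophage barcodes, while APOE stands highest in smooth muscle barcodes, at 3695 CPM in the graft, against 2925 CPM in the native artery.

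In the graft, the members other than APOE lay mostly in the barcodes richest in macrophage markers. There, barcodes with 30 or more marker UMIs held 97.1% of the TREM2, 98.2% of the GPNMB, 98.4% of the MCOLN3, 99.1% of the LPL, 99.4% of the FABP4, 97.6% of the FABP5 and 95.3% of the PPARG UMIs of all macrophage barcodes. They held 68.4% of the APOE. TREM2 was 219 CPM in these graft barcodes, against 17.7 CPM in graft barcodes with 10 to 29 marker UMIs and 9.42 CPM in those with 3 to 9. APOE was 940, 816 and 665 CPM over the same 3 ranges. Native GPNMB, from 10, 4 and 24 UMIs, did not follow the markers, at 3.52 CPM in barcodes with 3 to 9 marker UMIs, 8.27 CPM in those with 10 to 29 and 3.49 CPM in those with 30 or more, which held 63.2% of its UMIs. The native artery showed the reverse order for APOE, which was 5.68 CPM in barcodes with 30 or more marker UMIs, 116 CPM in those with 10 to 29 and 350 CPM in those with 3 to 9.

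Restricted to 30 or more marker UMIs, the graft stood at 219 CPM and the native artery at 7.13 CPM for TREM2, a ratio of 30.7. GPNMB was 263 CPM in the graft, against 3.49 CPM in the native artery, a ratio of 75.3. LPL was 537 CPM in the graft, against 29.98 CPM in the native artery, a ratio of 17.9, and FABP5 was 1317 CPM and 174 CPM, a ratio of 7.57. Each of these 4 ratios was larger than in all macrophage barcodes, and the median depth of these barcodes, 34817.5 UMIs in the graft and 14066.5 in the native artery, was closer between the libraries.

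**Figure D2:**
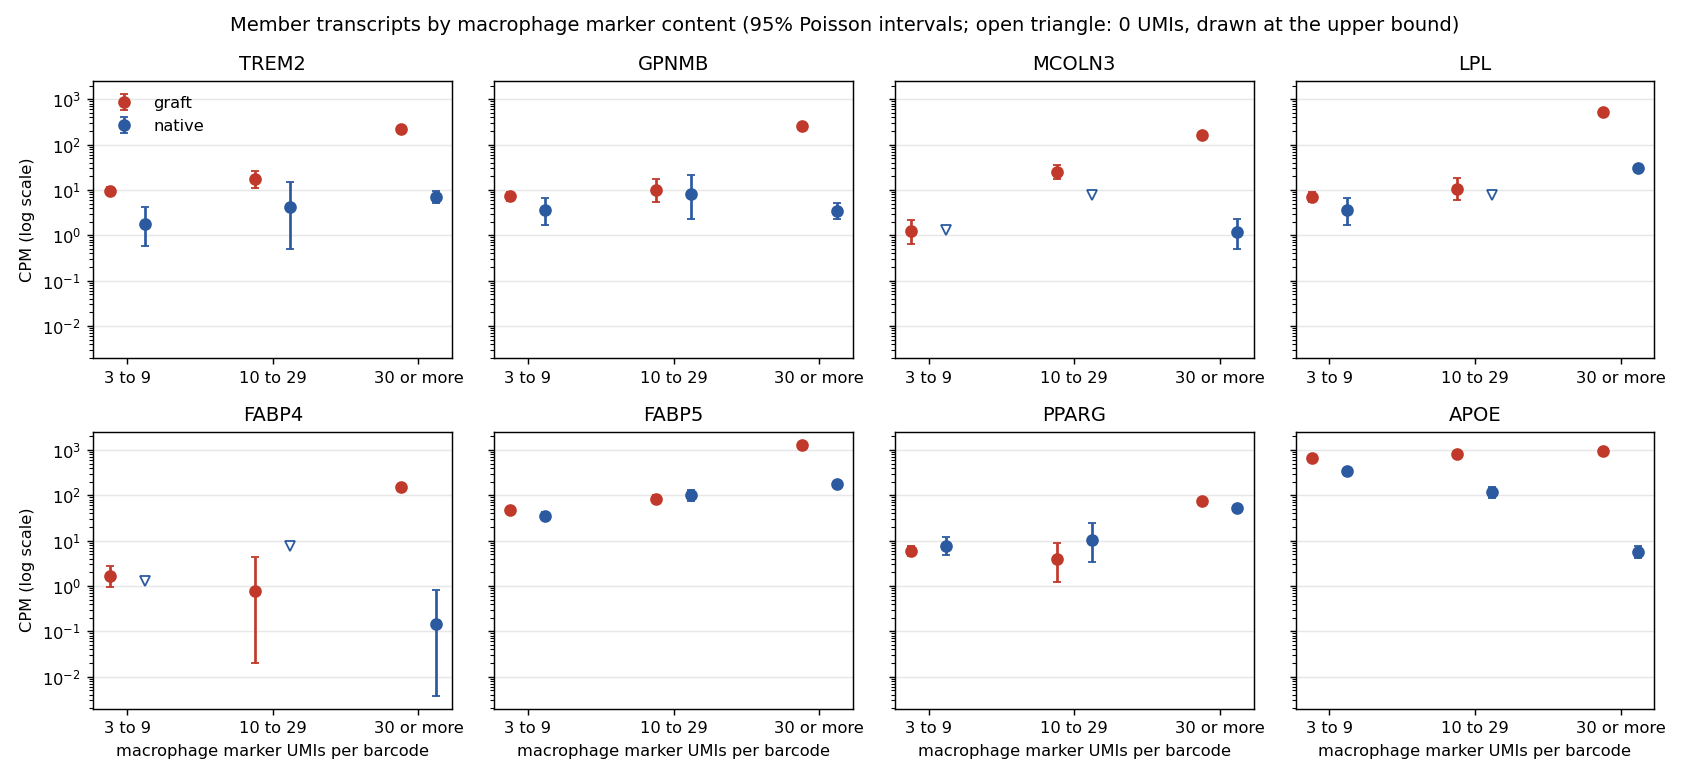
Level of each gene in CPM (vertical log axis) in macrophage barcodes with 3 to 9, 10 to 29 and 30 or more UMIs of the 5 macrophage markers (horizontal axis), graft in red and native artery in blue, with 95% Poisson intervals and open triangles at the upper bound where 0 UMIs were found. Graft TREM2 was 9.42, 17.7 and 219 CPM over the 3 ranges, while native APOE was 350, 116 and 5.68 CPM.

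Because graft barcodes were deeper, the share of macrophage barcodes with at least 1 UMI was also taken after each barcode had been thinned at random to 5000 UMIs, which left 545 graft and 591 native barcodes and dropped 98 and 1021 shallower ones. TREM2 was found in 28.6% of the graft barcodes, with an exact binomial interval of 24.9% to 32.6%, against 2.37% of the native ones, with an interval of 1.30% to 3.94%. Unthinned, TREM2 was found in 45.1% of those graft barcodes and 6.09% of the native ones. GPNMB was found in 23.1% of graft and 1.02% of native barcodes, MCOLN3 in 16.5% and 0.508%, and LPL in 25.3% and 5.75%. FABP4 was found in 22 graft barcodes, or 4.04%, and in 0 of 591 native ones, which allows a share of up to 0.508% at 3 counts of the total and 0.622% by the exact interval. FABP5 was found in 55.2% of graft and 29.1% of native barcodes. APOE was found in 43.1% of graft and 3.89% of native barcodes. The graft interval lay above the native one for these 7 members. PPARG was found in 17.8% of graft barcodes, with an interval of 14.7% to 21.3%, and in 13.03% of native ones, with an interval of 10.4% to 16.0%, so that the intervals overlapped.

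T or NK barcodes at the same depth, which should lack most of these transcripts, had FABP5 in 9 of 26 in the graft, or 34.6%, and in 27.5% of 342 in the native artery. The native macrophage share of FABP5, 29.1%, overlapped the T or NK share within the intervals, while native barcodes with 30 or more marker UMIs had FABP5 in 37.7%, with an interval of 33.0% to 42.5%, above the T or NK interval of 22.8% to 32.5%. TREM2 was found in 2 of the 26 graft T or NK barcodes and in 0 of the 342 native ones, which allows a share of up to 0.877% at 3 counts of the total and 1.07% by the exact interval. APOE was found in 4 of the 26 graft and in 3 of the 342 native T or NK barcodes. The 26 graft barcodes, with a median of 7444 UMIs before thinning, allow only wide intervals, from 0.946% to 25.1% for TREM2. At 1000 UMIs per barcode, 575 graft and 1076 native macrophage barcodes remained. TREM2 was found in 7.65% of the graft ones in the draw used, with an interval of 5.61% to 10.1%, and in 0.372% of the native ones. The share expected over all random draws was 10.3% in the graft, just above that interval, and 0.515% in the native artery. In that draw the same 7 members had graft intervals above the native ones, and the PPARG intervals overlapped, at 4.52% in the graft and 3.07% in the native artery.

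**Figure D3:**
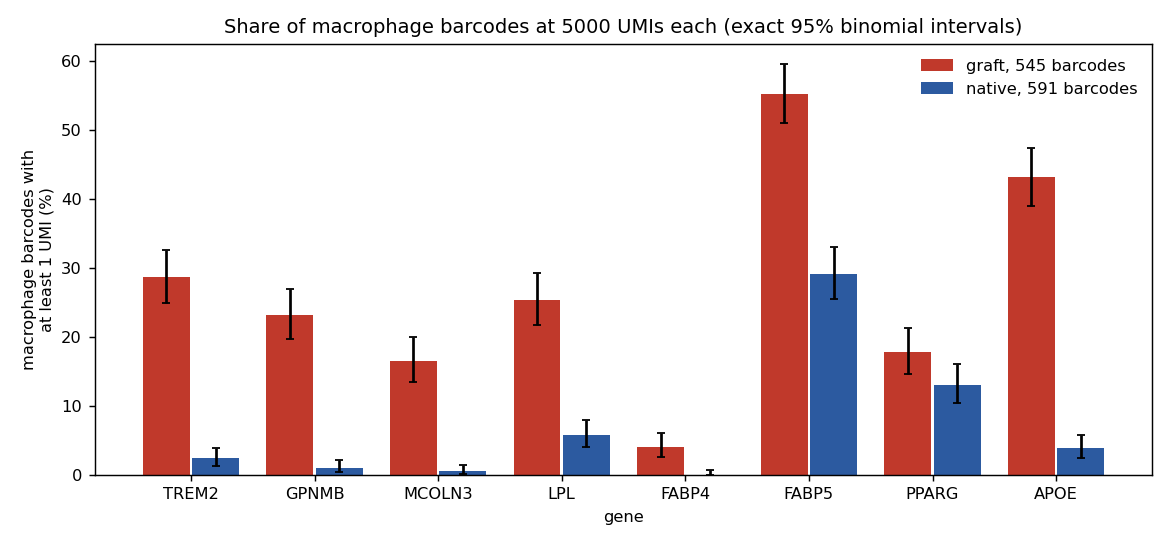
Percentage of macrophage barcodes with at least 1 UMI of each gene (vertical axis, from 0) after thinning every barcode to 5000 UMIs, for 545 graft barcodes in red and 591 native barcodes in blue, with exact 95% binomial intervals. The intervals are apart for every gene except PPARG, and FABP4 is at 0 in the native artery.

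At equal depth several members were found in the same graft cells. Among the 345 graft barcodes with 30 or more marker UMIs and a depth of 5000 UMIs, 161, or 46.7%, had at least 3 of the 7 members other than APOE, against 6 of 422 native barcodes, or 1.42%. At least 5 of the 7 were found in 53 of the graft barcodes and in 0 of the native ones. Over all macrophage barcodes at that depth, at least 3 were found in 163 of 545 graft and 6 of 591 native barcodes. In the 345 graft barcodes the single shares were 78.8% for FABP5, 43.5% for TREM2 and 37.7% for LPL. They were 37.7%, 3.08% and 7.35% in the 422 native ones. Counts of members per barcode rise with such shares, and no count expected from the shares alone was computed.

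TREM2, LPL, MCOLN3 and GPNMB were each found more often in graft barcodes that held another of the 4 than in those that did not. TREM2 was present in 150 of the 345 barcodes. LPL was found in 58.7% of the barcodes with TREM2, with an interval of 50.3% to 66.6%, and in 21.5% of those without, with an interval of 16.0% to 28.0%. GPNMB was found in 50.7% of the barcodes with TREM2 and 22.1% of those without, and MCOLN3 in 42.0% and 12.8%. APOE, counted in the same barcodes, was found in 60.7% of those with TREM2 and in 30.8% of those without. In native macrophage barcodes TREM2 was present in 13 of 422, of which 4 had LPL, 0 had GPNMB and 0 had MCOLN3.

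PPARG did not separate barcodes with GPNMB or MCOLN3 in this way. GPNMB was found in 33.0% of the 91 graft barcodes with PPARG and in 35.0% of those without, and MCOLN3 in 27.5% and 24.8%. PPARG was found in 32.0% of the barcodes with TREM2, with an interval of 24.6% to 40.1%, and in 22.1% of those without, with an interval of 16.4% to 28.5%. FABP4 was present in 19 of the 345 barcodes. All 19 also had FABP5, 16 had TREM2, 13 had LPL and 10 had PPARG, while 8 had GPNMB. For comparison, PPARG was found in 26.4% of all 345 barcodes. TREM2 was found in 84.2% of the barcodes with FABP4, with an interval of 60.4% to 96.6%, against 41.1% of those without, and GPNMB in 42.1% against 34.0%, with intervals that overlapped.

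**Figure D4:**
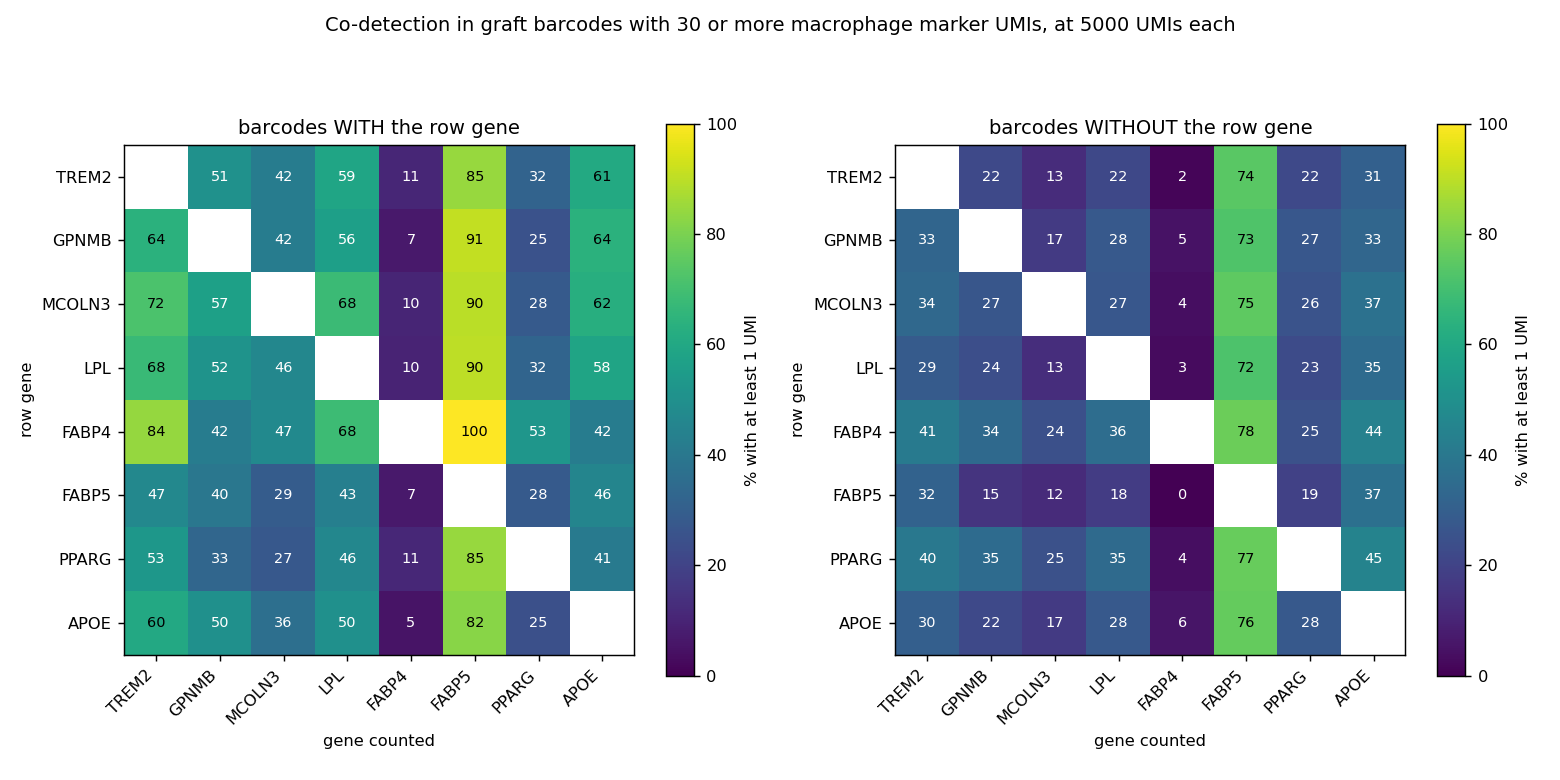
Percentage of graft barcodes with at least 1 UMI of the column gene among those with (left) and without (right) the row gene, in the 345 barcodes with 30 or more macrophage marker UMIs, each thinned to 5000 UMIs. LPL is found in 58.7% of barcodes with TREM2 and 21.5% of those without, while GPNMB is found in 33.0% of barcodes with PPARG and 35.0% of those without.

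The genes whose counts followed the members most closely were looked for across the 545 graft macrophage barcodes thinned to 5000 UMIs, as a description of cells that share 1 library. Pearson's r of log(1 + UMIs) was highest for CSTB with TREM2, at 0.58, and with FABP5, at 0.71. CSTB encodes cystatin B, an inhibitor of cathepsins. TREM2 was followed next by CLEC4D, a C-type lectin receptor, at 0.55 and by the carboxypeptidase gene CPM at 0.54. LPL was followed by CPM at 0.61, CSTB at 0.59 and the galectin gene LGALS3 at 0.53, and MCOLN3 by CPM at 0.46, CSTB at 0.45 and the asparaginase gene ASRGL1 at 0.44. FABP5 was followed after CSTB by CTSZ, a lysosomal cathepsin, at 0.68 and by CD68, a glycoprotein of lysosomes, at 0.59. GPNMB was followed by CTSD, the aspartic protease of lysosomes, at 0.55, by SCPEP1 at 0.48 and by CD68 at 0.48. These 545 barcodes include 200 with 3 to 29 marker UMIs. In the 345 with 30 or more, S100A4 led for TREM2 at 0.53, CSTB for FABP5 at 0.59 and CTSD for GPNMB at 0.54. There CD68 was not among the 3 genes closest to FABP5 or GPNMB.

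APOE and PPARG were followed by other genes. The genes most like APOE were RGS5 at 0.52, NOTCH3 at 0.50 and MYH11 at 0.48, which are known from pericytes and smooth muscle. In barcodes with 30 or more marker UMIs, 345 in number, they were HTRA1 at 0.62, FERMT2 at 0.50 and FN1 at 0.48. For PPARG the highest values were 0.28 for CTSS, itself one of the 5 markers that chose the barcodes, 0.28 for LRMDA and 0.27 for VAV3. Between members, r was 0.53 for TREM2 with LPL, 0.47 for LPL with MCOLN3 and 0.40 for TREM2 with FABP5, against 0.16 for TREM2 with PPARG. APOE ranged from 0.29 with GPNMB, above the 0.27 of LPL with GPNMB, to 0.03 with FABP5 and -0.05 with PPARG, and with GPNMB it reached 0.40 in barcodes with 30 or more marker UMIs. In those stricter barcodes r was 0.47 for TREM2 with LPL and 0.43 for LPL with MCOLN3. It was 0.22 for TREM2 with FABP5, below the 0.27 of TREM2 with APOE. PPARG there had 0.15 with FABP4 and 0.14 with LPL, against -0.02 with GPNMB. FABP4 was found in too few barcodes for a search of the closest genes, which needed 10%.

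Other marker lists moved with some of the members inside the graft, and their part in these results was not tested. The 12 osteoclast markers, led by the protease CTSK and with MMP9 and ACP5 among them, summed to 3501 CPM in graft and 654 CPM in native macrophage barcodes, with a range per barcode of 0 to 105539 CPM in the graft and 0 to 8683 CPM in the native artery. OCSTAMP and MMP9 were at 0 in native macrophage barcodes, and CALCR, the calcitonin receptor of mature osteoclasts, had 4 UMIs in the graft and 1 in the native artery. Of the 345 graft barcodes with 30 or more macrophage marker UMIs and at least 1000 UMIs, 80 had 3 or more osteoclast list UMIs after thinning to 1000. In these 80, LPL was 966 CPM, against 377 CPM in the other 265, GPNMB was 467 CPM against 186 CPM, MCOLN3 was 244 CPM against 127 CPM and TREM2 was 298 CPM against 189 CPM. PPARG was 62.3 CPM in the 80 and 77.2 CPM in the 265, and APOE was 640 CPM and 1053 CPM. Without all barcodes over that osteoclast limit in both libraries, the log2 ratio of graft over native was 3.34 for LPL and 4.70 for GPNMB, against 3.97 and 5.46 with them.

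Resident macrophage markers, led by the mannose receptor MRC1, split the members differently. The 5 found in the matrices summed to 670 CPM in graft and 718 CPM in native macrophage barcodes, but they did not move together. FOLR2 was 190 CPM in the graft, against 63.3 CPM in the native artery, and CD163 was 148 CPM and 128 CPM. LYVE1 was 7.35 CPM and 43.9 CPM, F13A1 48.7 CPM and 150 CPM, and MRC1 276 CPM and 333 CPM. In the 87 graft barcodes with 3 or more UMIs of this list after thinning, TREM2 was 117 CPM, against 237 CPM in the other 258, LPL was 171 CPM against 603 CPM, and MCOLN3 was 70.9 CPM against 175 CPM. GPNMB went the other way, at 463 CPM in the 87 and 227 CPM in the 258, but 2 of the 87 barcodes, with 360 and 294 UMIs, held 50% or more of that GPNMB. By share of barcodes GPNMB was found in 46.0% of the 87 and 64.0% of the 258. PPARG was 84.4 CPM in the 87 and 71.2 CPM in the 258, the closest pair of the 8.

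FABP4 had a higher level in the graft barcodes with neutrophil list UMIs, but it lay in few barcodes. That list is led here by the calgranulin gene S100A12, summed to 412 CPM in graft and 22.6 CPM in native macrophage barcodes, and had its defining genes low, with MPO at 0 in both libraries and CSF3R at 44 UMIs in the graft and 90 in the native artery. FABP4 was 1132 CPM in the 20 graft barcodes with 3 or more UMIs of the list after thinning, against 62.1 CPM in the other 325. It was present in 7 of the 20 and in 35 of the 325. As the 10 highest of all graft macrophage barcodes held 90.1% of the FABP4 UMIs, this difference can rest on a few barcodes. FABP5 was 2418 CPM in the 20 and 1211 CPM in the 325, and PPARG was 161 CPM and 64.7 CPM. In the 18 graft barcodes with 3 or more cycling list UMIs FABP5 was 3087 CPM, against 1177 CPM in the other 327, and 1 of the 18 held 481 of their 836 FABP4 UMIs.

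**Figure D5:**
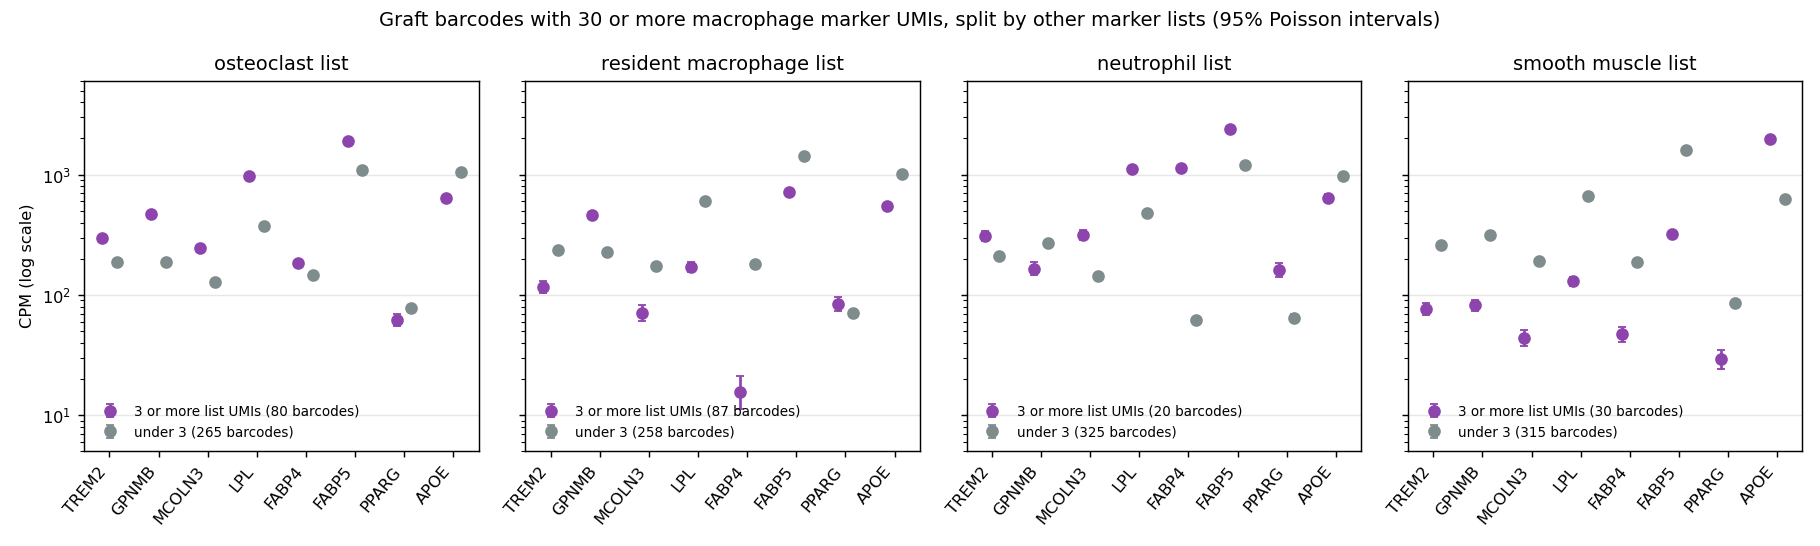
Level of each gene in CPM (vertical log axis) in the 345 graft barcodes with 30 or more macrophage marker UMIs, split by whether a barcode thinned to 1000 UMIs had 3 or more UMIs of the osteoclast, resident macrophage, neutrophil or smooth muscle list (purple) or fewer (grey), with 95% Poisson intervals. FABP4 is 1132 CPM in barcodes with neutrophil list UMIs and 62.1 CPM in the others, and APOE is 1974 CPM in barcodes with smooth muscle list UMIs and 633 CPM in the others. The 10 highest graft macrophage barcodes hold 90.1% of the FABP4 UMIs.

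In the named classes outside macrophage barcodes the members fell into those near 0 and those with a second class. TREM2, MCOLN3 and FABP4 had at most 5 UMIs in the endothelial, smooth muscle, fibroblast or T or NK barcodes of either library, except for TREM2 in graft fibroblast barcodes. There TREM2 had 157 UMIs in 18 of 108 barcodes, or 84.0 CPM, against 2 UMIs in native fibroblast barcodes, or 0.235 CPM, and 3 of the 18 held 60.5%. The unnamed barcodes were shallow, with a median of 735 UMIs in the graft and 708 in the native artery. TREM2 had 6 UMIs in the graft ones, or 54.9 CPM, against 2 in the native ones, or 1.15 CPM. LPL there was 101 CPM, from 11 UMIs, against 5.18 CPM, from 9 UMIs, and APOE was 302 CPM against 34.0 CPM. FABP4 had 1 UMI in each, and MCOLN3 had 3 in the graft and 0 in the native artery. In endothelial barcodes 4 members had the 10 UMIs needed, and 3 of them were at least 2-fold higher in the graft, against 12.8% of 14487 genes. LPL was 5.10 CPM in graft and 0.877 CPM in native endothelial barcodes, a ratio of 5.82 with an interval of 2.77 to 12.6. APOE was 28.5 CPM and 12.8 CPM in graft and native endothelial barcodes, a ratio of 2.22 with an interval of 1.74 to 2.82. GPNMB, with 7 graft and 12 native UMIs, had a ratio of 2.50 whose interval of 0.835 to 6.90 spans 1, and FABP5 had a ratio of 1.33. With 5 CPM added to both libraries none of the 4 reached 2-fold.

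APOE had its highest level in smooth muscle barcodes of both libraries. It was 3695 CPM in the 63 graft barcodes, with an interval of 3578 to 3815, against 2925 CPM in the 113 native ones, with an interval of 2780 to 3075. The ratio was 1.26, with an interval of 1.19 to 1.34. In smooth muscle barcodes 3 members had 10 UMIs or more and 2 were at least 2-fold higher in the graft, against 12.6% of 10340 genes. LPL had 25 UMIs in the graft and 0 in the native artery, which by the convention of a floor of 3 counts is at least 4.26-fold higher, and the exact interval of the ratio begins at 3.22. FABP5 had 135 graft UMIs, 75 of them in 1 barcode, against 4 native UMIs, and its ratio was 17.3 with an interval of 6.59 to 64.3. The order of APOE levels in the graft was smooth muscle, fibroblast, macrophage, endothelial and T or NK, and the last 2 overlapped within their intervals. In the native artery it was smooth muscle, macrophage, fibroblast, endothelial and T or NK, and the macrophage and fibroblast intervals overlapped. Native macrophage barcodes with 30 or more marker UMIs, at 5.68 CPM, stood below the fibroblast and endothelial barcodes instead.

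Smooth muscle markers and APOE were also found together inside the macrophage gate. In the graft, 92 macrophage barcodes with 3 or more smooth muscle list UMIs after thinning to 1000 had 1803 CPM of APOE, against 474 CPM in the other 483. In the native artery 11 such barcodes had 8274 CPM, against 14.8 CPM in the other 1065. Without them the log2 ratio of graft over native was 4.81, against 2.98 with them. Among graft barcodes with 30 or more macrophage marker UMIs and fewer than 3 smooth muscle list UMIs, APOE was still 633 CPM and was found in 226 of 315.

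In fibroblast barcodes LPL was lower in the graft, GPNMB was about level and APOE and FABP5 were higher. LPL was 11.8 CPM in the 108 graft fibroblast barcodes, from 22 UMIs, against 27.3 CPM in the 2179 native ones, from 232 UMIs in 140 barcodes. The ratio was 0.431, with an interval of 0.265 to 0.669. In the native artery the fibroblast level of LPL, with an interval of 23.9 to 31.0, was about that of macrophage barcodes, with an interval of 18.5 to 24.2. GPNMB was 19.8 CPM in graft and 22.0 CPM in native fibroblast barcodes, a ratio of 0.90 with an interval of 0.614 to 1.29. The native fibroblast level of GPNMB, from 187 UMIs in 81 barcodes, was above that of native macrophage barcodes, whose interval ended at 5.12. APOE was 2054 CPM in graft and 100 CPM in native fibroblast barcodes, a ratio of 20.5, and FABP5 was 27.3 CPM and 6.82 CPM.

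FABP5 and PPARG had a second class in T or NK barcodes. FABP5 was 122 CPM in the 47 graft barcodes, with an interval of 86.2 to 169, and 113 CPM in the 537 native ones, with an interval of 102 to 125, a ratio of 1.08. PPARG was 43.0 CPM in the graft, from 13 UMIs in 3 barcodes, and 19.9 CPM in the native artery, from 68 UMIs in 21 barcodes. The PPARG ratio was 2.16, with an interval of 1.10 to 3.95, and rests on those 3 graft barcodes. In native barcodes PPARG was lower in T or NK than in macrophage barcodes, whose interval began at 34.0. Other members were also higher in graft T or NK barcodes, from few UMIs. APOE was 23.2 CPM in the graft, from 7 UMIs, against 3.51 CPM in the native artery, from 12 UMIs. Its ratio was 6.60, with an interval of 2.20 to 18.2. LPL had 5 graft and 0 native UMIs, and the exact interval of its ratio begins at 10.4. TREM2 had 3 graft UMIs and 1 native UMI, while MCOLN3 had 0 and 2. Some macrophage markers were higher in the same graft T or NK barcodes. The ratio was 3.21 for C1QA, with an interval of 1.93 to 5.16, and 3.48 for C1QB, with an interval of 1.36 to 7.92. It was 2.12 for AIF1, 0.808 for CSF1R and 0.943 for CTSS, with intervals that span 1. Whether the member UMIs there came from T or NK cells was not tested.

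Of 67 other genes listed for the same lipid pathways, 57 were matched by symbol and 56 had enough UMIs. In macrophage barcodes 12 of the 56 were at least 2-fold higher in the graft and 4 were lower by the same fold. Their median log2 ratio was 0.20, and the shares over all genes counted were 12.7% higher and 12.4% lower, so counts near those shares in the lists below say nothing particular of a list. Scavenger and lipoprotein receptors gave 6 of the 12, out of 8 counted. OLR1, the receptor for oxidised LDL, was 518 CPM in graft and 53.2 CPM in native macrophage barcodes, a ratio of 9.73. Among barcodes with 30 or more marker UMIs it was 199 CPM and 52.5 CPM in graft and native artery. The scavenger receptor MSR1 was 331 CPM in the graft, against 118 CPM in the native artery, and CD68 was 376 CPM and 92.2 CPM, with ratios of 2.81 and 4.08.

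Cholesterol export gave 2 higher genes out of 6, the transporters ABCA1 and ABCG1. ABCA1 was 351 CPM in graft and 88.2 CPM in native macrophage barcodes, a ratio of 3.98. Among the genes of its control, MYLIP was 45.8 CPM in graft and 85.1 CPM in native macrophage barcodes, and the nuclear receptor RXRA was 36.9 CPM and 40.9 CPM, neither past 2-fold. Lysosomal lipid breakdown gave 2 of 8, and LIPA, the acid lipase of lysosomes, was 413 CPM in graft and 132 CPM in native macrophage barcodes, a ratio of 3.14. NPC2, which carries cholesterol inside lysosomes, was 417 CPM and 220 CPM, and the ceramidase gene ASAH1 was 242 CPM and 260 CPM. With 30 or more marker UMIs NPC2 passed 2-fold, at 594 CPM in graft and 250 CPM in native barcodes. ASAH1 there was 361 CPM and 320 CPM, and LIPA was 638 CPM and 167 CPM.

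Over all macrophage barcodes, lipid droplet genes gave 0 higher and 2 lower of 8. SOAT1, which makes cholesterol esters, was 246 CPM in graft and 502 CPM in native macrophage barcodes, a ratio of 0.491 with an interval of 0.474 to 0.510. The droplet coat gene PLIN2 was 52.1 CPM in the graft, against 32.5 CPM in the native artery, and MGLL was 46.7 CPM and 35.5 CPM. With 30 or more marker UMIs PLIN2 passed 2-fold, at 76.1 CPM in graft and 31.0 CPM in native barcodes. MGLL there was 70.1 CPM and 39.0 CPM, and SOAT1 was 362 CPM and 691 CPM. Fatty acid activation and oxidation gave 0 higher and 1 lower of 10 over all macrophage barcodes. CPT1A was 93.1 CPM in graft and 48.8 CPM in native ones, ACSL4 264 CPM and 391 CPM and ACSL3 65.6 CPM and 95.4 CPM. With 30 or more marker UMIs CPT1A passed 2-fold, at 135 CPM in graft and 59.4 CPM in native barcodes. ACSL4 there was 175 CPM and 369 CPM, and ACSL3 was 70.5 CPM and 109 CPM. Over all macrophage barcodes, the 3 genes counted of TREM2 signalling were lower in the graft by less than 2-fold: the kinase gene SYK was 119 CPM and 142 CPM in graft and native artery, the phospholipase gene PLCG2 40.2 CPM and 75.9 CPM, and the phosphatase gene INPP5D 236 CPM and 464 CPM. With 30 or more marker UMIs SYK was 188 CPM and 197 CPM, PLCG2 34.3 CPM and 83.3 CPM, past 2-fold, and INPP5D 336 CPM and 625 CPM. The 5 markers that chose the barcodes were also lower in graft than in native macrophage barcodes, with ratios from 0.524 for CSF1R to 0.728 for CTSS.

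Factors of lysosome formation gave 0 of 4 over all macrophage barcodes. MITF, which drives GPNMB in pigment cells, was 231 CPM in graft and 135 CPM in native ones, and TFEC was 76.4 CPM and 92.4 CPM. TFE3 was 24.9 CPM in the graft, against 27.2 CPM in the native artery. With 30 or more marker UMIs MITF just passed 2-fold, at 353 CPM in graft and 174 CPM in native barcodes. TFEC there was 124 CPM and 130 CPM, and TFE3 was 31.1 CPM and 30.1 CPM. Of the regulators of LPL, ANGPTL4, an inhibitor, was higher from low counts, with 125 UMIs in graft and 4 in native macrophage barcodes. Among barcodes with 30 or more marker UMIs it was 0.871 CPM in the graft, against 0.146 CPM in the native artery. LMF1, which LPL needs to fold, was 16.4 CPM in graft and 18.2 CPM in native macrophage barcodes. Among relatives of the members 1 of 6 was higher, while PPARD was 185 CPM in graft and 210 CPM in native macrophage barcodes and PPARA was 11.9 CPM and 16.4 CPM. Listed genes that were not matched by symbol, among them TYROBP, HCST, CD36, APOC1, APOC2, NPC1, FABP7 and TREM1, were not analysed here.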

How the data were processed

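Per the file headers, Cell Ranger 7.2.0 produced the 2 deposited matrices, 1 per library, which hold unnormalised UMI counts for each gene in each barcode that passed its cell filter. The libraries were made with the 10x NextGEM v3.1 kit for a target of 10000 cells, per the labels' protocols. Seurat 5.0.0, R 4.3.3 and bcl2fastq 2.20.0.422 are listed in the submitters' processing notes with no role stated, and the genome build is not given in the sources used here. Genes without a symbol held 18.8% of the graft UMIs and 22.7% of the native UMIs and are not named.

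Of 1229 graft barcodes, with 36238351 UMIs, 143 were removed because they had under 200 genes or over 20% of UMIs in the 13 mitochondrial genes, and 12 for the highest Scrublet scores (scanpy 1.11.5, 0.8% of barcodes per 1000 barcodes). Of 11371 native barcodes, with 43183715 UMIs, 266 failed the first limits and 1034 were marked by score. Counts were summed per class and library and scaled to 1000000. CPM carry exact Poisson intervals, ratios exact conditional binomial intervals and shares exact Clopper-Pearson intervals, all at 95% (Python 3.11.15, numpy 2.4.6, scipy 1.17.1, pandas 2.3.3). Called genes passed a fold of 2 and had at least 10 UMIs, with a count below 3 in a library raised to a floor of 3 for calls and log2 ratios. Printed ratios use the counts themselves. Thinning drew UMIs without replacement to 1000 or 5000. Code was checked on simulated counts.

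The members and the marker and pathway lists were chosen with earlier results of these data known. All members are named, with up to 3 genes per pathway list by highest mean CPM and the 3 most correlated genes per member. A few listed genes are counted in their lists but not reported by name here. The sample title naming an aorta was read as carotid artery from the source and description. No sequences were printed, because none was in the files used here.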

Additional observations from a re-analysis of the deposited data

Results flagged for a closer look

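LPL went in opposite directions in 2 classes of the same comparison. Its ratio of graft over native was 0.431 in fibroblast barcodes, from 22 graft and 232 native UMIs, and 15.6 in macrophage barcodes, from 9336 graft and 216 native UMIs. The exact counting intervals, 0.265 to 0.669 and 13.7 to 18.0, lie on opposite sides of 1. Each tissue gave 1 library, so the difference between the classes was not tested.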

How the results depend on the processing

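No paired analysis was possible because each tissue gave 1 library, and for the same reason no library could be left out in turn. The count of 7 higher members in macrophage barcodes held in 15 of 16 alternatives and was 8 with equal weight for each barcode. Over these alternatives the log2 ratios ran from 3.77 to 5.24 for TREM2, 4.27 to 6.56 for GPNMB, 4.17 to 8.04 for MCOLN3, 3.34 to 4.90 for LPL, 4.18 to 8.93 for FABP4, whose native count below 3 is raised to the floor of 3 except where 5 CPM is added, 2.30 to 3.29 for FABP5, 0.19 to 1.12 for PPARG and 2.87 to 7.37 for APOE, and none changed sign. The count of 12 higher pathway genes became 17 with the gate at 30 UMIs and 19 when the gate was applied after thinning to 1000 UMIs. It was 20 without barcodes in which another class list had more UMIs. The endothelial count of 3 members became 5 when classes were assigned whatever the gate and 0 with 5 CPM added, and the smooth muscle count of 2 became 7 whatever the gate and 1 in barcodes of at least 5000 UMIs. GPNMB was found in 25.0% of 44 graft barcodes with TREM2 at 1000 UMIs and in 48.7% of 156 at 5000 UMIs, where more transcripts per barcode are kept. The gate at 30 UMIs, the second random draw and the removals of smooth muscle list barcodes and of the 10 highest barcodes were chosen after seeing the data. Depth limits the native values most: GPNMB rests on 38 UMIs, MCOLN3 on 8 and FABP4 on 1.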
